A study of Mus musculus with 4 samples.

Results

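Interferon response genes were followed across 4 clonal derivatives of J558, an antibody-secreting plasmacytoma line of BALB/c mice. The list held 37 genes named by symbol: interferon receptors, the transcription factors that act behind them, and genes they are known to induce. Each gene was represented by its brightest probe set, the one with the highest mean log2(signal + 16) over the arrays. In this way 35 of the 37 members were measured, among 18193 measured genes. Isg15 shares its 1 listed probe set with another symbol, and for Ifi44 no listed probe set was found, so neither has a value here. The test of differences was run on the brighter probe sets, and 20 of the 35 measured members were among them, of 10475 tested genes.

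The clones formed 2 groups. In the 2 control clones an empty silencing vector had been introduced together with a neomycin resistance vector. In the 2 AID-silenced clones the silencing vector carried a sequence against activation-induced cytidine deaminase (AID), the enzyme that starts antibody gene mutation and class switching. All 4 clones had been selected with G418, and the labels name no interferon treatment. Each is a single clone measured on a single Affymetrix Mouse 430 2.0 array, and the titles place 1 control and 1 AID-silenced clone in pair 1 and the others in pair 2. The p-values thus reflect only how far single clones differ, be that clonal or technical, and the number of arrays limits the precision. Where values are given as a pair of numbers, pair 1 comes first, and "after silencing" stands for the AID-silenced clones. A bulk measurement cannot tell fewer cells with a transcript from less transcript per cell.

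The plasma cell label was borne out by its markers, with 9 of 9 measured markers above the background level on all arrays and summed signals between 136293 and 181657. Background was taken as the highest signal among 27 bacterial control probe sets, which was 27.3 to 41.9 on the arrays. It serves as a guide only, since no detection call was used. Of markers of other cells, the sums over the 5 T cell genes lay between 80.0 and 203 and those over the 6 macrophage and dendritic cell genes between 330 and 540. The only NK cell marker had signals of 51.2 and 32.5 in controls against 6.4 and 5.3 after silencing, and the 4 fibroblast genes summed to 136 to 204. Cd8a, Csf1r and Col1a2 were above background on all arrays, while Cd3d, Cd4, Cd14 and Itgax were below it on all arrays. The part of other cells in the values below was not tested. The median signals of the arrays were 52.7 to 54.9.

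Interferons are cytokines that put cells into an antiviral state. Type I interferons bind the receptor chains Ifnar1 and Ifnar2, whose kinases activate a complex containing Stat2 and Irf9. This complex binds the interferon-stimulated response element (ISRE) in the promoters of genes such as Ifit1, Oas1a and Mx1. Interferon gamma binds Ifngr1 and Ifngr2 and acts through another element, the gamma-activated site (GAS), and through Irf1. Factors of the Irf family also have roles of their own in B cells: Irf8 acts in B cells and Irf4 in plasma cells.

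RefSeq promoters of assembly GRCm38.p6, 250 bases before to 50 after the annotated start, were given for 33 of the 37 members. Mx1, Mx2, Usp18 and Rtp4 had no entry. The ISRE was searched as GAAA, any 2 bases and GAAA again on both strands, and matches were allowed to overlap. At least 1 match was found for 16 of the 33 genes, or 48.5%, against 3.99% of the 27025 genes in the table. Of promoters, 37.2% of 43 member promoters and 3.44% of 32851 in all held a match. The GAS was searched as TTCNNNGAA, which reads the same on both strands, and was found for 13 of the 33 genes, or 39.4%, against 9.55% of all genes. In 1 of the 43 member promoters an ISRE and a GAS match shared bases. A match is a description of the letters and not a bound site.

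The promoters of 5 members are shown because they stand for the patterns of expression described below, each written from 5′ to 3′ on the strand of the gene with ISRE matches in capitals. Ifit1 (chr19:34640639-34640938, + strand) and Oas1a (chr5:120907476-120907775, − strand) belong to induced genes near background in these clones. Bst2 (chr8:71537423-71537722, − strand) belongs to a gene well above background. Stat2 (chr10:128270248-128270547, + strand) and Irf7 (chr7:141266375-141266674, − strand) belong to factors whose signals differed between the pairs in opposite directions.
Ifit1: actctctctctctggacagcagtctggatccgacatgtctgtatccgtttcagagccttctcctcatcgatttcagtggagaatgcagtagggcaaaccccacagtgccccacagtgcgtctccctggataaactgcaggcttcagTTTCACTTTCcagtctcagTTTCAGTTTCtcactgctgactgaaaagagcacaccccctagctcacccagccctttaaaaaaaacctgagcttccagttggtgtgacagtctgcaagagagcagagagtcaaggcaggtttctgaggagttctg
Oas1a: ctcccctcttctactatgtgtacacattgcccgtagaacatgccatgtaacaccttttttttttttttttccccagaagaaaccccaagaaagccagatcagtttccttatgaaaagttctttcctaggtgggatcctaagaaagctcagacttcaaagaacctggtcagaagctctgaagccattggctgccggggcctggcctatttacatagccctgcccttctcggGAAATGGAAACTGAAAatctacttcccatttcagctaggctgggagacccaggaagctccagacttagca
Bst2: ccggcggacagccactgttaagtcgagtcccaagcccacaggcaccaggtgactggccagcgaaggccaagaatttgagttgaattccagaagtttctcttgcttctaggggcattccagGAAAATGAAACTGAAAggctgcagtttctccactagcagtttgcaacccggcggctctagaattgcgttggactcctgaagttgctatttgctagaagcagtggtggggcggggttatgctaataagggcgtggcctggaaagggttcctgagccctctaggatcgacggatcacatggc
Stat2: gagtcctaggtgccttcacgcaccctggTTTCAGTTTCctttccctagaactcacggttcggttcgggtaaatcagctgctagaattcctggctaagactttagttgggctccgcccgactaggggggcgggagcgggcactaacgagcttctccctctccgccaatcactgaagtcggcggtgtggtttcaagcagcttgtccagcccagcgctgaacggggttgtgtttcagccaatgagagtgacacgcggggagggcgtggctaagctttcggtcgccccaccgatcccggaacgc
Irf7: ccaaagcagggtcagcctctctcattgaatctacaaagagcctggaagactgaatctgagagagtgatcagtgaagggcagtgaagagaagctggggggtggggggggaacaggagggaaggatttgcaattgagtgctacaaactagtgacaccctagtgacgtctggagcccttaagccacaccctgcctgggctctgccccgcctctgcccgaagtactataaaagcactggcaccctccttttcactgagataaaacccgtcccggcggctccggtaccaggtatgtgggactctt
The Ifit1 promoter held 2 matches on the opposite strand, Oas1a and Bst2 each 2 overlapping matches on the gene strand, and Stat2 1 match on the opposite strand. The first of them began 104, 20, 130 and 222 bases before the start of Ifit1, Oas1a, Bst2 and Stat2. The Irf7 window held none of these letters, which says nothing about the factors that act on it.

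**Figure D1:**
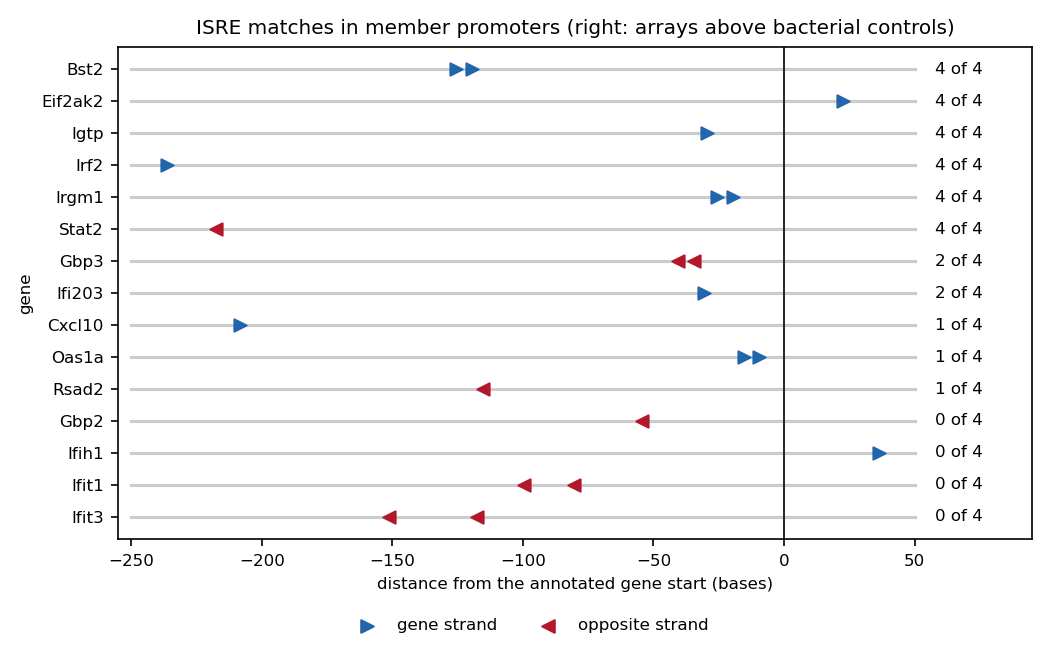
Positions of ISRE matches (triangles pointing along the strand of the match) in the promoter windows of the 15 measured members with a match, against the distance in bases from the annotated gene start. The numbers on the right give on how many of the 4 arrays the gene's signal was above the highest bacterial control, 4 of 4 for 6 genes and 0 of 4 for another 4.

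By role, the receptor chains and most transcription factors were well above background, and the other roles were mixed. All 4 receptor chains and 6 of the 7 transcription factors were above background on every array, but only 4 of the 12 antiviral effectors were, and another 5 of the 12 were above it on none. Of the measured GTPases 2 of 4 were above it on every array, of the sensors and regulators 1 of 4, and of the other induced genes 1 of 4. Over all members the shares were those of the array at large: 18 of 35, or 51.4%, were above background on all 4 arrays and 22.9% on none, against 54.6% and 23.2% of all measured genes. Among members with an ISRE match 6 of 15 were above background on all arrays, and among those with a promoter but no match 12 of 16 were. These sets also differ in role. All 4 receptor chains lacked a match, and of the factors only Stat2 and Irf2 had one. Match and role cannot be told apart here, and the same split over all genes was not made.

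**Figure D2:**
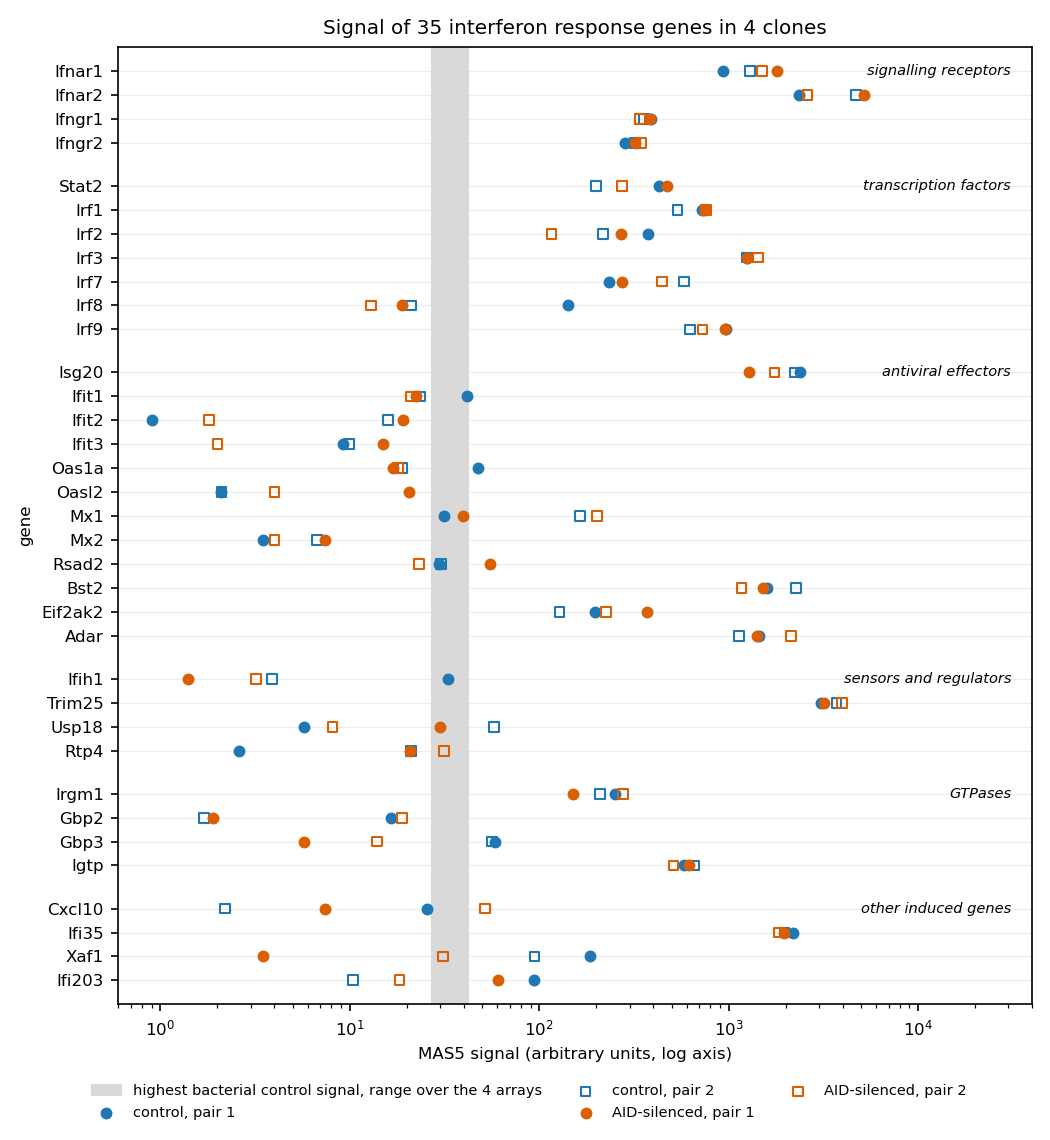
MAS5 signal (arbitrary units, log axis) of the 35 measured members in the control (blue) and AID-silenced (orange) clones of pair 1 (filled circles) and pair 2 (open squares), grouped by role. Receptors and most factors lie to the right of the grey band, the range of the highest bacterial control signal from 27.3 to 41.9, while Ifit1, Ifit2, Ifit3, Oasl2 and Mx2 lie in or left of it in all 4 clones.

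Of the type I receptor chains, Ifnar1 had signals of 939.9 and 1299 in controls against 1807 and 1495 after silencing. Both AID-silenced clones were above both controls, and the second, dimmer probe set gave the same direction in both pairs. Ifnar2 had 2346 and 4727 in controls against 5158 and 2611 after silencing. At this probe set the high clones were the control of pair 2 and the AID-silenced clone of pair 1, so that neither the groups nor the pairs separated. Its 2 dimmer probe sets gave another order, with 223 and 488 in controls against 314 and 317 after silencing at the brighter of them. At both of these only the control of pair 2 was high, and both pair 2 clones were above both pair 1 clones. The type II chains were level: Ifngr1 had 389 and 357 against 386 and 340.0, and Ifngr2 284 and 321 against 320.4 and 346. No interferon transcript stood well above background: Ifng was between 1.7 and 4.7, Ifna2 between 5.2 and 11.7, Ifna4 between 4.1 and 15.0 and Ifnb1 between 31.2 and 46.4, just above the bacterial controls on 3 arrays. These 4 of 5 listed ligand genes were measured, and none was bright enough for the test.

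Among the factors, Stat2, the subunit through which type I signals reach the ISRE, had signals of 429 and 199 in controls against 475 and 275 after silencing. Its partner Irf9 had 965 and 623 in controls against 952 and 728 after silencing. For both genes the 2 clones of pair 1 were above the 2 of pair 2. Irf2, which competes with activating factors at the same element, had 374 and 218 in controls against 271 and 116 after silencing, again with both pair 1 clones above both pair 2 clones. Irf7, the factor that amplifies type I interferon production and is itself induced by it, had 233 and 582 in controls against 274 and 447 after silencing. In this gene the order was turned, with both pair 2 clones higher.

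Irf1, an early target of interferon gamma, had 721 and 538 in controls against 754 and 764 after silencing, with the groups separated by a small margin. Irf3, which answers to cytosolic sensors and is present before any infection, lay between 1249 and 1426 in all clones. Irf8 was above background in 1 clone only, with 142 in the control of pair 1 and at most 21.0 in the others, and its second probe set gave 132 there and 3.3 to 12.0 elsewhere.

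The antiviral effectors above background were Isg20, Bst2, Eif2ak2 and Adar. Isg20, an RNA exonuclease, had signals of 2372 and 2242 in controls against 1284 and 1750 after silencing, and both AID-silenced clones were below both controls. Bst2, the membrane tether that holds budding virions, had 1588 and 2269 in controls against 1524 and 1169 after silencing, which were also the lower ones. Eif2ak2, the kinase PKR that stops translation on sensing double-stranded RNA, had 196 and 128 in controls against 372 and 226 after silencing. The AID-silenced clones were the higher ones, and over its 3 probe sets the log2 difference ran from 0.04 to 0.81. Adar, which edits adenosine in double-stranded RNA, had 1453 and 1140 in controls against 1415 and 2136 after silencing, so only the AID-silenced clone of pair 2 stood apart. Its second probe set lay between 831 and 886 in all clones, with no clone apart.

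Mx1, a dynamin-like GTPase that blocks influenza virus and of which BALB/c mice carry a defective allele, had 31.5 and 164 in controls against 39.8 and 202 after silencing. Both pair 2 clones were several times above both pair 1 clones, of which the control was below the highest bacterial control of its array and the AID-silenced clone, at 39.8 against 27.3, above it. Its neighbour in function, Mx2, was between 3.5 and 7.4.

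The strongly inducible Ifit and enzyme genes stayed low. Ifit1 was between 21.0 and 41.7, Ifit2 between 0.9 and 19.0 and Ifit3 between 2.0 and 15.0. The Ifit1 protein binds foreign RNA ends. Oasl2 lay between 2.1 and 20.6 and Oas1a, an oligoadenylate synthetase, between 17.0 and 47.8, with only the control of pair 1 above its bacterial controls. Rsad2, the radical SAM enzyme viperin, lay between 23.1 and 55.1. Of the sensors and regulators, Trim25, a ubiquitin ligase that activates the RNA sensor RIG-I, was abundant, with 3086 and 3719 in controls against 3187 and 3985 after silencing. The sensor gene Ifih1 lay between 1.4 and 33.0, Rtp4, a Golgi chaperone of receptors, between 2.6 and 31.5, and Usp18, which removes Isg15 from proteins and damps the receptor, between 5.7 and 57.5.

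Among the GTPases that guard against intracellular pathogens, Igtp had 581 and 658 in controls against 617 and 512 after silencing, and Irgm1 lay between 151 and 276. Gbp2 lay between 1.7 and 18.8. Gbp3 had 58.2 and 56.5 in controls against 5.7 and 13.9 after silencing, so it was above background in the controls only. Of the remaining members, Ifi35 was high and level, between 1834 and 2197. Xaf1, a pro-apoptotic gene, had 185 and 94.6 in controls against 3.5 and 31.1 after silencing. Ifi203, of the family of DNA-binding interferon proteins, had 93.7 and 10.4 in controls against 60.8 and 18.3 after silencing. The chemokine gene Cxcl10 lay between 2.2 and 51.9, with its highest value in the AID-silenced clone of pair 2.

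The study's own comparison, AID-silenced against control clones, called none of the members. Limma gave 0 of 20 tested members an adjusted p under 0.05, with 0.9996 as the lowest, where 2 of 22519 probe sets, or 0.00888%, were called. An unadjusted p under 0.05 was reached by 2 of the 20 tested members, Xaf1 and Isg20, against 3.89% of all tested genes and 3.49% of probe sets. Xaf1 entered the test only through its control signals. Its place in this tally and among the lower members below thus carries no weight. With the pair as a replicate block the count of members called was again 0 and the lowest adjusted p in limma was 0.447. The groups did not overlap in 8 of the 20 tested members, with 4 above (14.3% of all tested genes) and 4 below (14.4%) the controls. That is 40.0% of the tested members, beside 28.7% of all tested genes, a gap of few genes that was not tested. Receptors and factors gave 3 of the 4 higher members, Ifnar1, Irf1 and Irf3, with Eif2ak2 as an effector, and no overlap was also seen for the lower Isg20, Bst2, Xaf1 and Ifi35. The margin for Irf3 was below 1 unit of signal. That for Ifi35 was small too, with 1972 in the lower control against 1959 in the higher AID-silenced clone. At the other probe sets of Ifi35, and at some dimmer ones of Irf3 and Eif2ak2, the groups overlapped.

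In log2(signal + 16), where 1 is a 2-fold difference, Xaf1 was lower by −2.30 ± 0.55 (SE, n = 2 clones per group, limma adjusted p = 0.9996). The difference was −3.37 in pair 1 and −1.23 in pair 2. Xaf1 was bright enough for the test only through its control signals, and the AID-silenced signals lay below background, so the size depends on the added 16. It was −3.47 where 1 was added, under which Xaf1 did not enter the test, and −1.31 where 64 was added. With 1 clone left out it lay between −2.94 and −1.66. The second probe set of Xaf1 was lower as well, by −0.51. Isg20 was lower by −0.62 ± 0.24 (SE, limma adjusted p = 0.9996), with −0.88 and −0.35 in pairs 1 and 2. Eif2ak2 was higher by 0.81 ± 0.38 (SE), with 0.87 and 0.75 in the pairs, and Ifnar1 by 0.57 ± 0.26, with 0.93 and 0.20. The SE of this comparison come from the fit without the pair block and so include differences between the pairs. Bst2 was lower by −0.50 ± 0.28, nearly all of it from pair 2, where it was −0.95 against −0.06 in pair 1.

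A difference of at least 2-fold that ran the same way in each pair was found for 2 of the 35 measured members, Xaf1 and Gbp3, both lower after silencing, against 1.54% of measured genes in either direction and 0.824% lower. Usp18 alone was 2-fold apart in opposite directions, against 1.04%. Gbp3 differed by −1.77 in pair 1 and −1.28 in pair 2 and was too dim for the test. No member was 2-fold higher in both pairs. Of the 20 tested members, 8 were higher in both pairs, 6 lower in both and 6 opposite. The median difference over the 35 measured members was 0.04, with 0.01 in pair 1 and −0.05 in pair 2, beside −0.01 over all measured genes. Probe sets of 1 gene differed in sign for Adar, Ifnar2, Irf3, Trim25 and the dim Gbp2, Rsad2 and Rtp4, of which Rtp4 had the widest span, −0.60 to 0.67.

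**Figure D3:**
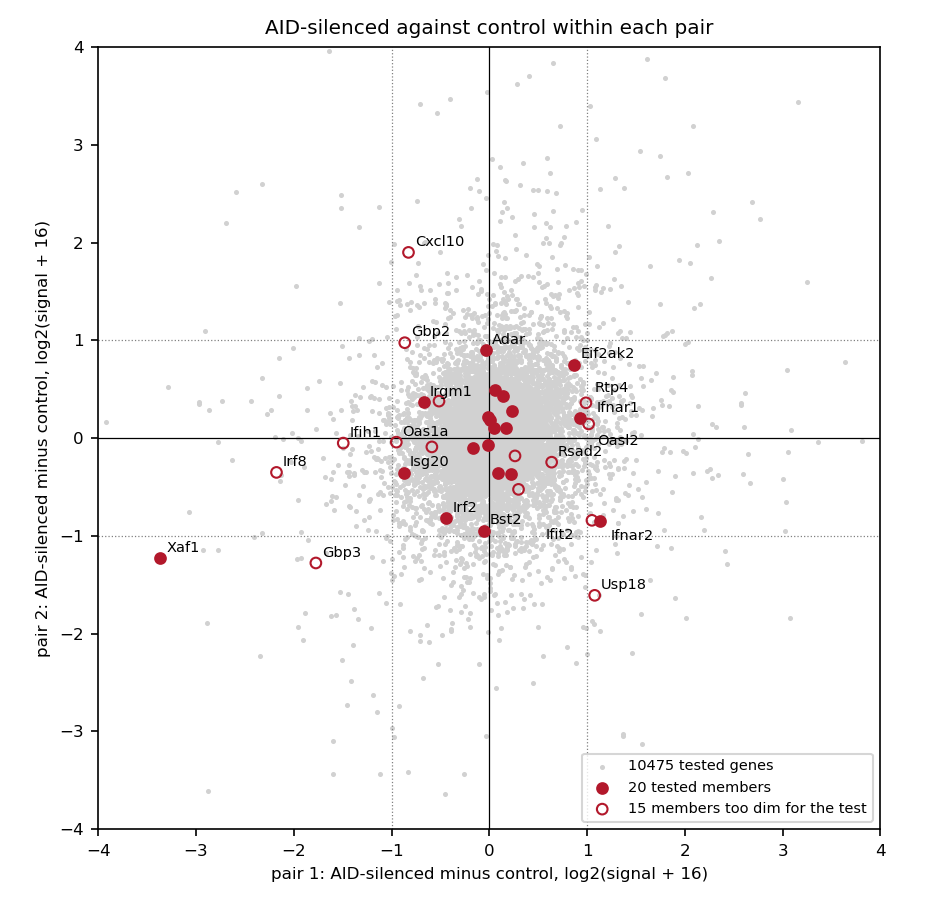
AID-silenced minus control difference in log2(signal + 16), pair 1 on the horizontal and pair 2 on the vertical axis, for tested members (filled red), dimmer members (open red) and all 10475 tested genes (grey, 31 of them outside the axes). Dotted lines mark 2-fold. Xaf1 and Gbp3 lie beyond 2-fold at the lower left, and Usp18 beyond it in opposite directions.

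The second comparison set the 2 clones of pair 2 against the 2 clones of pair 1, each pair holding 1 control and 1 AID-silenced clone. What the clones of a pair share beyond the label is not stated. Limma called 0 of 20 tested members, with 0.245 as the lowest adjusted p, and 0 of 22519 probe sets in all, or 0.0%. An unadjusted p under 0.05 was reached by 5 of the 20 members (25.0%), against 15.5% of all tested genes and 13.5% of probe sets. Mx1 is among them and entered the test through its pair 2 signals. Its place in this count and among the higher members below thus carries no weight. With the group as a block the lowest adjusted p was 0.125 in limma and the member count was again 0. The pairs did not overlap in 8 of 20 tested members, 4 higher in pair 2 (19.5% of all tested genes) and 4 lower (29.3%). That is 40.0% of the tested members, beside 48.8% of all tested genes, a gap of few genes that was not tested. The difference between pairs was larger in size than that between groups in 9 of the 20, against 60.4% of tested genes.

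The 5 members at an unadjusted p under 0.05 were Mx1 and 4 of the 6 tested transcription factors. Mx1 was higher in pair 2 by 1.95 ± 0.31 (SE, n = 2 clones per pair, limma adjusted p = 0.245). The differences were nearly equal, at 1.92 between the control clones and 1.97 between the AID-silenced clones. The mean is 3.85-fold with 16 added to each signal, while the mean signals themselves were 183.25 in pair 2 and 35.65 in pair 1. Mx1 entered the test through its pair 2 signals. Its log2 difference was 1.31 where 64 in place of 16 was added to the signal, and 2.33 where 1 was added. Irf7 was higher in pair 2 by 0.97 ± 0.25 (SE, limma adjusted p = 0.261), with 1.26 and 0.67 in the control and AID-silenced clones. Stat2 was lower by −0.90 ± 0.26 (SE, limma adjusted p = 0.274), at −1.05 and −0.76, and its second probe set gave −0.72. Irf2 was lower by −0.93 ± 0.36 and Irf9 by −0.50 ± 0.20 (SE). In this comparison the SE come from the fit without the group block and so include differences between the groups.

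The other members whose pairs did not overlap were Trim25, higher in pair 2 by 0.29 ± 0.16 (SE) and also apart at all 3 of its probe sets, Ifngr1 at −0.15 and Ifngr2 at 0.14. Eif2ak2 was lower in pair 2 in both groups at its brightest probe set, by −0.56 and −0.68, but its pairs overlapped. Its second probe set, nearly as bright, gave 0.07 between the control and −0.52 between the AID-silenced clones. The third gave −0.20 and −0.14, with the pairs apart. Stat2 and Irf9, partners in the type I complex, were lower in pair 2, where Irf7, a known target of that complex, was higher. None of the 3 was called, and a link between them was not tested. Ifnar1, at 0.09 ± 0.32 (SE), had overlapping pairs. Probe sets of 1 gene differed in sign between pairs for Adar, Ifngr2, Irf3, Ifi35, Xaf1 and the dim Gbp2, Rsad2 and Rtp4. For Irf3 they ran from −0.69 to 0.18 and for Rtp4 from −0.72 to 0.68, and for the others no farther than −0.42 or 0.24.

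A difference of at least 2-fold that ran the same way in each group was found for 2 of the 35, Mx1, higher in pair 2, and Ifi203, lower by −2.05 and −1.16 and too dim for the test. The array gave 1.9% of measured genes. With the added 16, Cxcl10 alone was 2-fold apart in opposite directions, against 1.12%. With 1 added, the dim Ifit2, Gbp2 and Usp18 were so too, and with 64 added Cxcl10 was not. Mx1 lies on chromosome 16, as do 5 other measured members, Ifnar1, Ifnar2, Ifngr2, Mx2 and Rtp4. Their differences between pairs were 0.09, 0.01, 0.14, −0.004 and 0.68, the last of a gene below background on every array. These are the brightest probe sets. The second probe set of Ifnar1 gave 0.50 and the other 2 of Ifnar2 gave 0.54 and 0.57, and with probe sets averaged the genes stood at 0.30 and 0.38. The median over the 35 members was −0.004, with −0.08 between the control and −0.10 between the AID-silenced clones, beside −0.03 over all measured genes.

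**Figure D4:**
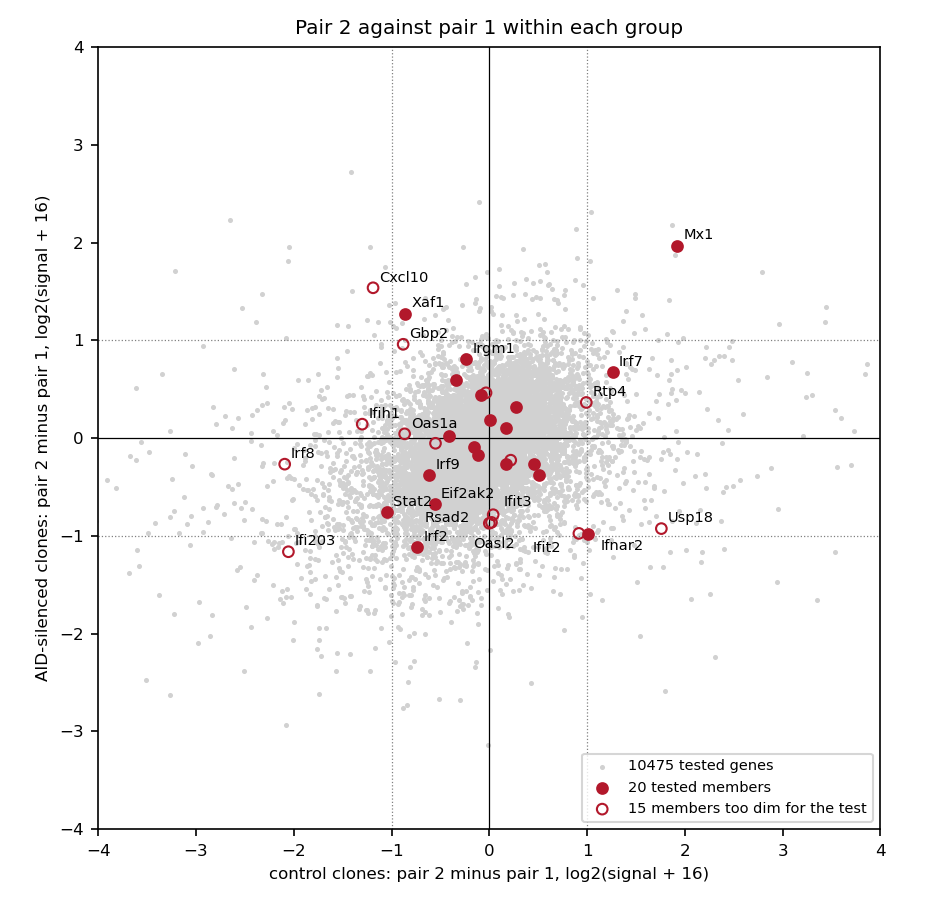
Difference of pair 2 and pair 1 in log2(signal + 16), between the control clones on the horizontal and between the AID-silenced clones on the vertical axis, with symbols as in the plot of AID-silenced against control clones and 22 tested genes outside the axes. Mx1 lies beyond 2-fold at the upper right at 1.92 and 1.97, Irf7 in the same quadrant, and Stat2, Irf2 and Irf9 at the lower left.

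The pathway was extended by 81 further genes of interferon signalling and response, of which 69 were measured and 36 tested. For these only the brightest probe set of a gene was examined, although some have several, among them Trim21, Trim34a, Socs3 and Irf5. Limma called 0 of the 36 in either comparison, with lowest adjusted p of 0.9996 and 0.300, and an unadjusted p under 0.05 was reached by 2 (5.56%) for AID-silenced against control and by 6 (16.7%) for pair 2 against pair 1. These shares are near the 3.89% and 15.5% of all tested genes. Between AID-silenced and control clones 10 were higher in both pairs, 12 lower in both and 14 opposite. Groups did not overlap in 9 of the 36, or 25.0%, and pairs in 20, or 55.6%, beside 28.7% and 48.8% of tested genes. At least 2-fold lower in both AID-silenced clones were 3 of the 69, Parp9, Trim21 and Slfn2, against 0.824% of measured genes, and none was 2-fold higher.

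Parp9, an ADP-ribosyl transferase partner that works with Dtx3l, had signals of 546 and 219 in controls against 90.3 and 101 after silencing. Trim21, the cytosolic antibody receptor, had 159 and 119 in controls against 50.3 and 14.9 after silencing. Slfn2, a schlafen gene of lymphocytes, had 103 and 71.0 against 8.8 and 20.4. In all 3 genes both AID-silenced clones were below both controls, by log2 differences of −1.71, −1.76 and −1.76. Parp9 and Trim21 were the 2 genes at an unadjusted p under 0.05, but Trim21 passed the brightness filter only through its control signals, and Slfn2 was too dim for the test. Between the pairs 2 of the 69 were 2-fold apart in the same direction both times, against 1.9% of measured genes. Trim34a was at least 2-fold higher in both pair 2 clones, with 45.8 in the control and 55.9 in the AID-silenced clone against 14.2 and 11.6 in pair 1. Socs3, an inhibitor of cytokine signalling, was lower, with 5.8 and 10.8 in pair 2 against 107 and 38.3 in pair 1. Both were too dim for the test.

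Of the signalling genes on the list 6 of 9 measured were above background on all arrays, and of the sensors and adaptors 9 of 13, against 54.6% of all measured genes. Tyk2, a kinase on Ifnar1, lay between 580 and 811, Mavs, the adaptor of RNA sensors, between 588 and 939, Myd88 between 966 and 1161, and Ddx58, the RNA sensor RIG-I, between 1337 and 2282. The brightest probe set for the receptor kinase Jak1, in contrast, lay between 1.7 and 27.0, below background in every clone. Irf5, a factor of the Irf family, was higher in pair 2, with 858 in the control and 521 in the AID-silenced clone against 398 and 272 in pair 1, a log2 difference of 0.99 ± 0.32 (SE, limma adjusted p = 0.304). Ticam1, the adaptor of Tlr3, was lower there, with 343 and 457 against 668 and 664 in the same order (−0.73 ± 0.23, SE, limma adjusted p = 0.300). These upstream genes were read from the list after their values were seen.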

How the data were processed

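Total RNA of 4 J558 clones was labelled and hybridised to 1 array each. The deposited values are array intensities, 1 MAS5 signal per probe set, per the submitters' processing notes; the version is not given in the sources used here. The 2% trimmed mean was checked and was 500.0 on each array, so the arrays were not normalised again. Values were taken as log2(signal + 16), which damps the noise of dim probe sets and understates differences of dim genes. Of 45101 probe sets, 64 controls were left out, and the upper 0.5 by mean log2 value entered limma 3.58.1 (R 4.3.3, statmod 1.5.0; lmFit and eBayes, trended and robust prior), with Benjamini-Hochberg adjustment over all 22519. The fit was tested on simulated data. The platform annotation gave 34945 probe sets 1 symbol, 932 several and 9160 none; 34754 matched the RefSeq table of GRCm38.p6.

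Members and lists were chosen with earlier results of these data known. All members could be named; of the further list, genes called in either fit or at least 2-fold apart both times, up to 4 per direction, and others as stated. The pair numbers come from the titles, and the design text names pairs of cells as the source of the hybridised RNA. Pair differences correlated between control and AID-silenced clones across probe sets (r = 0.306). Tried as alternatives were a pseudocount of 1 or 64, scaling by the median, quantile normalisation, no filter or the upper 0.25, the mean of a gene's probe sets, a block for pair or group, and 1 clone left out. The level of the silenced gene is not reported here. Figures were drawn with matplotlib 3.10.9.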

Additional observations from a re-analysis of the deposited data

Results flagged for a closer look

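Usp18 and Cxcl10 differed at least 2-fold in opposite directions, each from single arrays, and the difference was not tested. For Usp18 the AID-silenced minus control difference in log2(signal + 16) was 1.08 in pair 1 and −1.61 in pair 2. For Cxcl10 the pair 2 minus pair 1 difference was −1.19 between the control clones and 1.54 between the AID-silenced clones. Both genes were too dim for the fit, with all signals at or under 57.5, and Cxcl10 was above the bacterial controls on 1 array and Usp18 on 2. Which genes are flagged depends on the added 16. With 1 added, Ifit2 and Gbp2 were also 2-fold apart in opposite directions in both comparisons, and with 64 added neither Usp18 nor Cxcl10 was.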

How the results depend on the processing

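The count of members called was 0 in both comparisons under every alternative run, with the replicate block, the group block and each clone left out among them. With 1 clone left out an arm holds a lone clone, assumed to vary like the 2 of the other arm. These values were taken without a block. Part of the difference between pairs thus enters the difference between groups, and the reverse. Between pairs no probe set was called at all, so the 0 shows no stability. The lowest adjusted p of any member was 0.207 for AID-silenced against control, without the control clone of pair 2, and 0.125 for pair 2 against pair 1, with the group block. Dim signals and 4 arrays limit all values, and causes of the changes below were not tested.

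The count of members at least 2-fold apart in both pairs was 0 with a pseudocount of 64, 0 under the stricter filter, which keeps only 11 members, and 1 when probe sets were averaged. Between pairs it was 1 with a pseudocount of 64 and 0 with the stricter filter. The median AID-silenced minus control difference was 0.095 under the stricter filter and −0.068 when probe sets were averaged, and −0.127 to 0.004 with 1 clone left out. The median between pairs was 0.025 with median scaling, 0.013 and −0.018 with pseudocounts of 1 and 64, 0.067 under the stricter filter, −0.020 when probe sets were averaged, and −0.244 to −0.043 with 1 clone left out. The median between pairs was below 0 with any 1 clone left out.

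Small single differences also turned. Between pairs, quantile normalisation gave −0.034 for Ifnar2 and 0.087 for Igtp, the mean of probe sets −0.069 for Irf3, and a pseudocount of 64 −0.079 for Xaf1. With 1 clone left out, AID-silenced minus control ran from −0.364 to 0.642 for Ifnar2, −0.127 to 0.049 for Ifngr1, −0.238 to 0.813 for Stat2, −0.707 to 0.557 for Irf7, −0.208 to 0.410 for Irf9, −0.730 to 1.237 for Mx1, −0.088 to 0.233 for Trim25 and −0.552 to 0.252 for Irgm1. These ranges include part of the pair difference. Within pairs 1 and 2 the differences were 0.23 and 0.28 for Mx1 and 0.14 and 0.43 for Stat2. Ifngr1 and Trim25 also had the same sign in both pairs, but Ifnar2, Irf7, Irf9 and Irgm1 had opposite signs. Pair 2 minus pair 1 ran from −0.371 to 0.560 for Ifnar1, −0.552 to 0.580 for Ifnar2, −0.443 to 0.049 for Irf1, −0.258 to 0.619 for Isg20, −0.407 to 0.540 for Bst2, −0.326 to 0.570 for Adar, −0.051 to 0.619 for Irgm1, −0.221 to 0.132 for Igtp and −1.479 to 1.888 for Xaf1. The differences of Xaf1, Isg20, Eif2ak2 and Ifnar1 between groups, and of Mx1, Irf7, Stat2, Irf2 and Irf9 between pairs, kept their sign under every alternative that held them. The stricter filter removed Xaf1, Eif2ak2, Mx1, Irf7, Stat2 and Irf2, and Xaf1 was also not in the fit with a pseudocount of 1.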

Other observations

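Some genes of the wider interferon list stood apart in a single clone, and these were chosen after their values were seen. Ifitm3, a membrane protein that blocks virus entry, had signals of 6952 and 956 in controls against 7767 and 6031 after silencing, so the control of pair 2 was the low one. Zbp1, a sensor of Z-form nucleic acids, was high in that same clone, with 1159 against 324 to 331 in the others. Nmi, an interferon-inducible partner of Stat proteins, had 1016 in the control of pair 1 and 90.0 to 279 in the others. Parp14 and Dtx3l, partners of Parp9 that lie on chromosome 16 with it, were low in the AID-silenced clone of pair 1 only, with 21.2 against 84.6 to 145 for Parp14 and 18.9 against 60.2 to 125 for Dtx3l.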
